A study of Mus musculus with 20 samples.

Results

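The genes described here are Foxd1, Pax3, Hoxc13, Nr2e3, Mybphl, Soga3, Bmerb1 and AA467197, 8 of the 20960 genes counted in mouse ovary RNA. They were chosen because their counts were at or near 0 in the Control libraries and were present in the Model libraries. The difference between Model and Control is therefore what selected them, and it is described without a test. All 8 were found by symbol, each in 1 row, and all 8 passed the filter on low counts that left 15723 genes for testing. They passed it through the groups in which they were counted, not through Control.

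Messenger RNA of ovary was sequenced in 20 libraries, 5 in each of 4 labelled groups. Control has N/A as its treatment label, Model is labelled ovarian cancer, and LNPIFN-Y and ptLNPIFN-Y carry the ovarian cancer label together with a particle. Per the series text, tumours were grown from ID8Luci cells injected into the ovarian bursa of C57BL/6 mice after expansion of the bursa with a particle, and tumours developed for 60 days before treatment. The same text describes ptLNP as peptide-targeted lipid nanoparticles and has them carry interferon-γ mRNA. LNPIFN-Y is taken here, from its name, as the particle without the peptide, since neither the labels nor that text describe it. ID8 is a line grown from mouse ovarian surface epithelium, so tumour and host share a genome and a count cannot be assigned to either. The series text names a sham control, but the labels do not say that Control is that group, how old the mice were, or whether each library is a separate animal. No library is labelled as an empty particle. P-values therefore measure the spread between these libraries, which may in part be technical. Total counts ran from 16496792 to 17218033 per library. The sample titles name no batch, and all libraries were treated as 1 batch.

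Of the 8 genes, 4 encode transcription factors, proteins that bind DNA and switch developmental programmes. Foxd1 is a forkhead factor of kidney stroma and retina, Pax3 a paired-box factor of neural crest and muscle progenitors, Hoxc13 the last homeobox gene of its cluster, used in hair and nail, and Nr2e3 a nuclear receptor of photoreceptors. Mybphl encodes a myosin-binding protein known from the heart atria. Soga3 belongs to the small SOGA family, and Bmerb1 carries a bMERB domain, a fold that binds Rab GTPases of membrane traffic. AA467197, also called Nmes1, encodes a small mitochondrial protein whose human counterpart is induced in inflammation. Adult ovary is not the tissue that any of these transcription factors is best known from. The authors' deposited table gave a transcription factor family to 4 of the 8 (50% of them), against 1542 of all 20960 genes (7.36%). The 8 are a list chosen with earlier results known, so nothing is read from this share.

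The 8 genes lie on 8 different chromosomes of GRCm38.p6. Foxd1 (Entrez ID 15229) is on chromosome 13 from 98354245 to 98356705, Pax3 (18505) on chromosome 1 from 78101267 to 78197136, and Hoxc13 (15422) on chromosome 15 from 102921131 to 102928814. Nr2e3 (23958) is on chromosome 9 from 59942771 to 59960834, and Mybphl (68753) on chromosome 3 from 108364911 to 108380057. Soga3 (67412) is on chromosome 10 from 29143996 to 29199630, Bmerb1 (67254) on chromosome 16 from 13986612 to 14105052, and AA467197 (433470) on chromosome 2 from 122637887 to 122641076. Soga3 overlaps 9330159F19Rik and Bmerb1 overlaps Ifitm7 in the table, and these 2 are the only ones of the 8 with decimals in their deposited counts. In GENCODE M21 the span of Nr2e3 also holds Gm7616 and Gm15507, and that of Mybphl holds Gm12522. No source used here states that counting used strand, so reads of such overlapping genes may be shared.

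Sequence upstream of the start site is shown for 3 of the genes, so that genes counted in the same libraries can be set side by side. AA467197 had the most counts, Mybphl the most among the genes at 0 in Control, and Soga3 was the only one of the 5 with a RefSeq entry to hold an interferon-type motif in this window. Each is 250 bases, from RefSeq on GRCm38.p6, on the plus strand, covering chr2:122637637-122637886, chr3:108364661-108364910 and chr10:29143746-29143995. Capitals mark motif letters found on either strand.
AA467197: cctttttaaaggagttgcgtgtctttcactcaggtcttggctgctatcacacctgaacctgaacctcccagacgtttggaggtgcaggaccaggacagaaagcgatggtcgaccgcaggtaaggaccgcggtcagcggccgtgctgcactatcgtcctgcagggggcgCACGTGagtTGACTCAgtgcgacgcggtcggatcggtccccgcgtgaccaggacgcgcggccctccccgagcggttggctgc
Mybphl: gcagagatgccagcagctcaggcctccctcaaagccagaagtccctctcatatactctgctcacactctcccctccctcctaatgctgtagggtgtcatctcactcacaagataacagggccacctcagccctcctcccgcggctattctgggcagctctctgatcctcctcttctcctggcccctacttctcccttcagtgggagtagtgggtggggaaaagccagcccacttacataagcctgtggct
Soga3: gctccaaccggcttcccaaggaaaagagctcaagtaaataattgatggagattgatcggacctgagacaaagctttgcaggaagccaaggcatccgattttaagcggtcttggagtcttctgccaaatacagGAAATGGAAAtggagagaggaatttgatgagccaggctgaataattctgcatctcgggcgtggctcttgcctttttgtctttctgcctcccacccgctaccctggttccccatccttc
The motifs searched were AP-1 (TGANTCA), the interferon-γ activated site GAS (TTCNNNGAA), the interferon-stimulated response element ISRE (GAAA and GAAA with NN between them), the E-box CACGTG and the TEAD motif GGAATG, on both strands, and no match overlapped another in the 5 windows. AA467197 held an AP-1 and an E-box match, which 6.75% and 6.02% of 32851 upstream windows of this length held, and Soga3 an ISRE match, held by 2.98%. Mybphl, Foxd1 and Nr2e3 held no match to the 5 motifs, where the RefSeq window of Nr2e3 (chr9:59950080-59950329, minus strand) lies inside the deposited span of that gene and so belongs to another start site than the span's, and GAS and TEAD letters, in 7.02% and 12.6% of windows, were in none of the 5 members with an entry. The window of AA467197 had 24 CpG dinucleotides, those of Foxd1, Soga3, Nr2e3 and Mybphl had 12, 7, 3 and 2, and the median over all windows was 6. A match describes letters and does not show binding.

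The microRNA gene Mir147 lies within AA467197, and a mature strand of it is shown because it comes from the same transcribed stretch (chr2:122640814-122640837, plus strand, RefSeq, seed in capitals). MicroRNAs were not measured in these libraries.
mmu-miR-147-5p: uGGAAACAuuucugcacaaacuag

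Among the transcription factors, Pax3 gave the clearest contrast. It had 0 counts in each of the 5 Control libraries and 7, 36, 505, 14 and 7 counts in Model 1 to 5. In LNPIFN-Y 1 to 5 it had 342, 69, 128, 47 and 703 counts, and in ptLNPIFN-Y 1 to 5 it had 29, 235, 303, 438 and 195. Every library with the ovarian cancer label held Pax3 counts and no Control library did. Foxd1 had 0, 0, 1, 1 and 1 counts in Control, 2, 12, 163, 5 and 6 in Model, 100, 15, 33, 12 and 108 in LNPIFN-Y and 3, 36, 68, 72 and 52 in ptLNPIFN-Y. The Foxd1 ranges of Control and Model did not overlap, but Model 1 was only 1 count above the highest Control library.

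Hoxc13 was weaker and less regular in Model. It had 1 count in Control 1 and 0 in the other Control libraries, and 0, 7, 120, 3 and 0 counts in Model 1 to 5. Model 1 and Model 5 therefore did not differ from Control in this gene. Hoxc13 then had 47, 8, 25, 5 and 190 counts in LNPIFN-Y 1 to 5 and 3, 53, 48, 63 and 23 in ptLNPIFN-Y 1 to 5. Nr2e3 was low but counted in every Control library, with 2, 2, 2, 6 and 1 counts. It had 9, 24, 302, 12 and 5 in Model, 198, 52, 95, 63 and 40 in LNPIFN-Y and 24, 51, 300, 381 and 157 in ptLNPIFN-Y. Model 5 lay inside the Control range of Nr2e3 and the other 4 Model libraries above it.

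Mybphl, the muscle gene, was at 0 in all 5 Control libraries and had 12, 79, 566, 31 and 2 counts in Model 1 to 5. In LNPIFN-Y it had 619, 121, 193, 148 and 103 counts, and in ptLNPIFN-Y 58, 123, 767, 749 and 254. Its lowest library with the ovarian cancer label, Model 5, held 2 counts. Soga3 was also at 0 in all Control libraries, with 2, 7, 40, 1 and 0 rounded counts in Model, 32, 9, 14, 4 and 67 in LNPIFN-Y and 7, 12, 44, 52 and 7 in ptLNPIFN-Y. Soga3 had the fewest counts of the 8 genes, and Model 5 was at 0 like Control.

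Bmerb1 and AA467197 were near 0 in Control only in comparison with the other groups. Bmerb1 had 6, 6, 5, 9 and 8 counts in Control and 21, 105, 626, 42 and 4 in Model, so that Model 5 was below every Control library. In LNPIFN-Y it had 724, 165, 299, 239 and 33 rounded counts, and in ptLNPIFN-Y 66, 156, 1054, 982 and 361. AA467197 had 1, 3, 1, 6 and 32 counts in Control, and 23, 223, 2016, 78 and 38 in Model. Control 5 was above Model 1 in this gene. AA467197 had 2961, 681, 1124, 370 and 1591 counts in LNPIFN-Y and 231, 2102, 2443, 3495 and 1602 in ptLNPIFN-Y. It had the most counts of the 8 genes in every library labelled ovarian cancer.

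**Figure D1:**
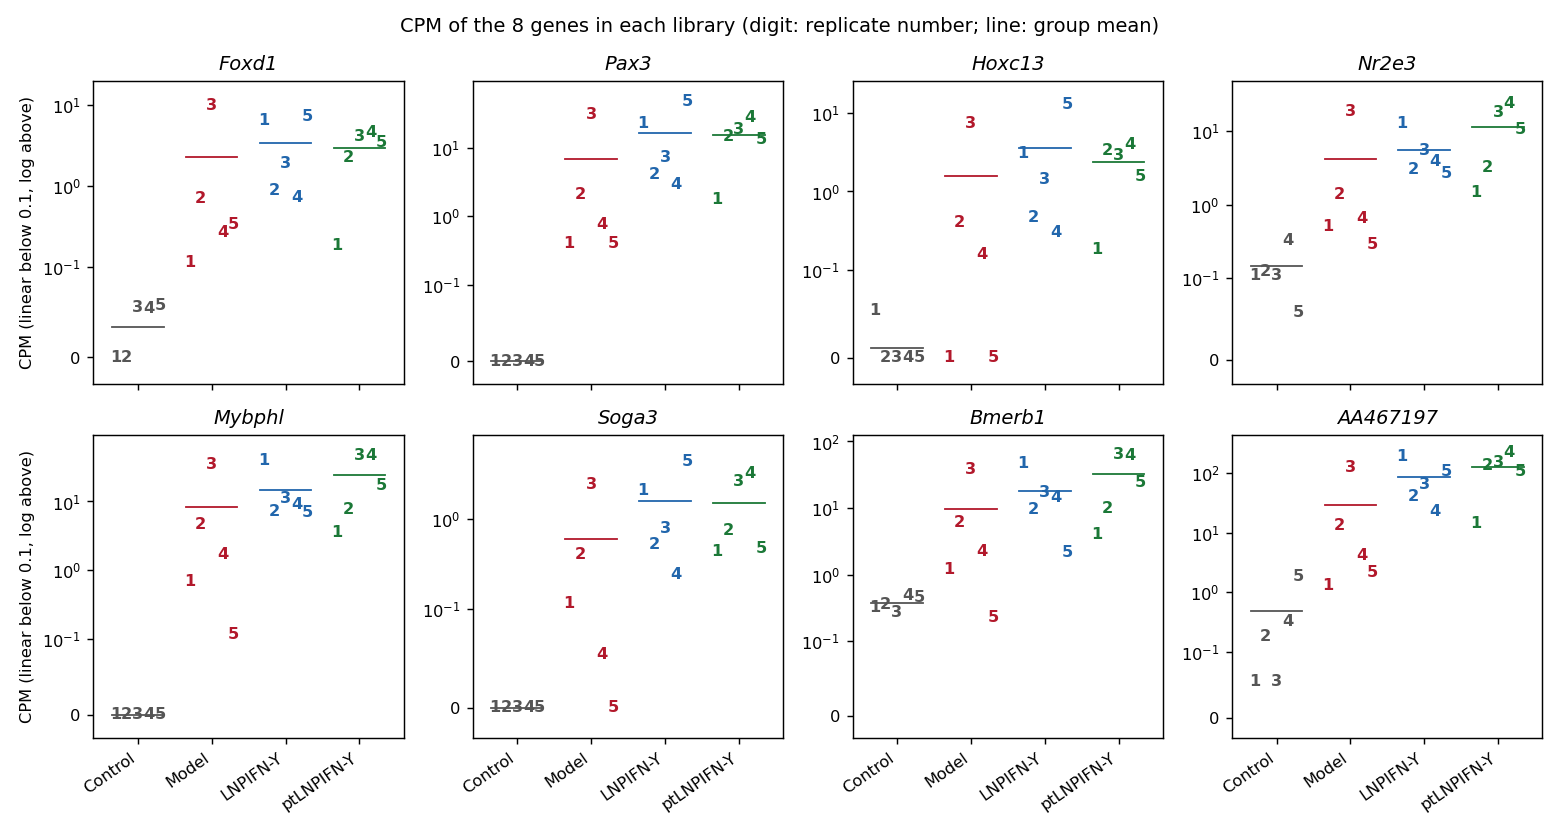
CPM (counts scaled to the library size by edgeR with TMM factors) of each gene in every library, by group; each digit is the replicate number of a library and the line is the group mean, on an axis that is linear below 0.1 and logarithmic above. Model 3 is the highest Model library in all 8 panels, and the 10 particle libraries lie above the 5 Control libraries in all 8.

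The Model values depended on library Model 3. It was the highest Model library for 8 of 8 genes, and Model 2 was the second highest for 8 of 8. Model 3 held 78.4% of all Model counts of Bmerb1, 80% of Soga3, 82% of Mybphl, 84.8% of AA467197, 85.8% of Nr2e3, 86.7% of Foxd1, 88.8% of Pax3 and 92.3% of Hoxc13. Its CPM was between 15.5 times (Bmerb1) and 51.3 times (Hoxc13) the mean of the other 4 Model libraries.

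Without Model 3 the direction over Control stayed the same for the group mean of every gene, and the size fell. Pax3 averaged 6.86 ± 13.3 CPM in Model (SD, n = 5) and 0.909 ± 0.806 without Model 3 (SD, n = 4), against 0 in Control. Set against a floor of 3 counts over the Control group, its summed counts were at least 189-fold higher with Model 3 and at least 26.5-fold higher without it. For Mybphl the bounds were at least 229-fold and at least 51.3-fold higher, and for Soga3 at least 16.6-fold and at least 4.14-fold higher. Foxd1, with 3 Control counts, had a ratio of summed counts of 62.5 (95% counting interval 21.1 to 306) with Model 3 and 10.3 (3.15 to 53.5) without it. Hoxc13, with 1 Control count, had 129.6 (22.9 to 5159) and 12.4 (1.76 to 538). The ratios of Nr2e3 were 27 and 4.77, those of Bmerb1 23.4 and 6.28, and those of AA467197 55.1 and 10.4. The intervals cover counting error only. The floors cover it on the Control side alone and take the Model sum as counted. The 4.14-fold of Soga3, from 10 Model counts, is thus not a full lower limit. Neither measure says anything of the spread between libraries, which was larger, with an SD above the mean for all 8 genes in Model.

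No overlap between the 5 Model and the 5 Control libraries was seen for 3 of the 8 genes, Foxd1, Pax3 and Mybphl. Over all 15723 tested genes 0.572% lay without overlap above Control in this comparison, and nothing is read from the members' count since the comparison chose them. The same 3 had no overlap when Model 3 was left out, where the share over all tested genes was 0.738%.

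**Figure D2:**
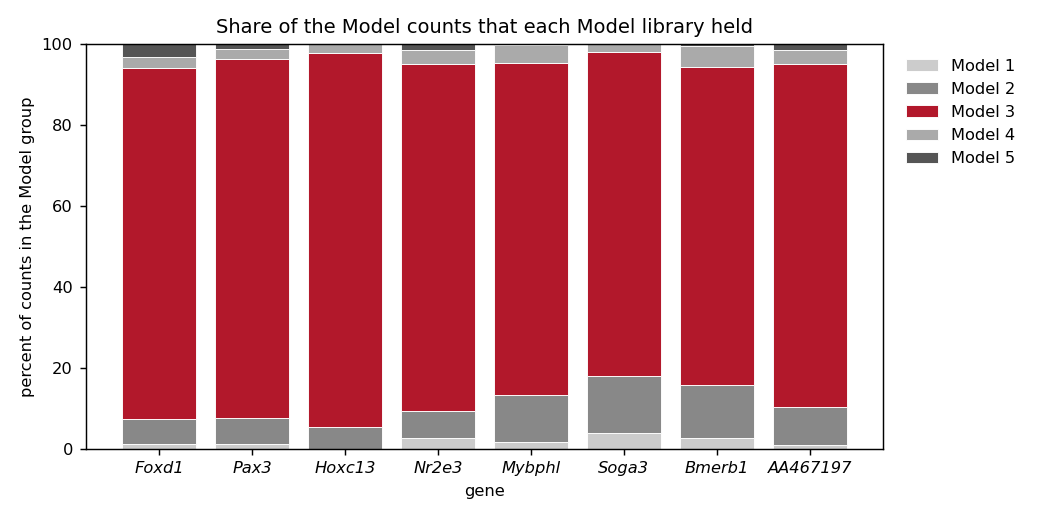
Share of the counts of each gene in the Model group, in percent, held by each of the 5 Model libraries (stacked bars). Model 3 holds between 78.4% (Bmerb1) and 92.3% (Hoxc13).

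The 10 particle libraries, which the rule for choosing the genes did not use, held counts of all 8 genes in every library. For 8 of 8 genes every LNPIFN-Y library was above every Control library (13.0% of all tested genes were), and likewise every ptLNPIFN-Y library (11.1% of all tested genes). Taking the 10 particle libraries together, 8 of 8 lay above Control without overlap, against 8.99% of all tested genes. These comparisons share the Control libraries that were chosen for being low, so they are given without a test. T cell genes were also higher in the particle libraries. They summed to 42.7 to 103 CPM in LNPIFN-Y and 57.2 to 165 CPM in ptLNPIFN-Y against 8.41 to 12 CPM in Control. MHC class II genes summed to 6774 to 13679 and 5949 to 13340.2 CPM against 395 to 710 CPM. The sums of inflammatory macrophage genes overlapped Control, at 57.9 to 134 and 53.7 to 122 CPM against 50.6 to 89.6 CPM. Genes within that list moved in both directions. Nos2 averaged 44.2 CPM in Control against 32.5 in LNPIFN-Y and 22.7 in ptLNPIFN-Y. Acod1 averaged 0.194 CPM in Control against 10 and 8.33, and Tnf 0.376 against 6.89 and 7.24. Mesothelial and surface epithelium genes overlapped Control too, at 656 to 2706 and 574 to 1335 CPM against 504 to 848 CPM. The medians of that list were higher, at 944 and 1148 CPM against 625 CPM in Control. The part of these lists in the 8 genes was not tested. In bulk tissue, more cells that make a transcript and more transcript per cell cannot be told apart.

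Set beside Model, the particle groups overlapped in every gene. None of the 8 had all LNPIFN-Y libraries above all Model libraries, where 4.33% of all tested genes did, and none had all ptLNPIFN-Y libraries above them, where 4.83% did. Model 3 was above all LNPIFN-Y libraries in Foxd1 and Nr2e3 and above at least 2 of the 5 ptLNPIFN-Y libraries in every gene. Pax3 averaged 16.6 ± 18.4 CPM with the untargeted and 15.1 ± 9.36 CPM with the targeted particle (SD, n = 5), which is 2.42 and 2.2 times its Model mean and 18.2 and 16.6 times its Model mean without Model 3. Mybphl averaged 14.8 ± 14.3 and 24.4 ± 21 CPM (SD, n = 5), or 1.79 and 2.94 times its Model mean and 8.4 and 13.8 times without Model 3. AA467197 averaged 84.7 ± 67.6 and 124 ± 74.7 CPM (SD, n = 5) against 28.6 ± 52.6 in Model, or 2.96 and 4.35 times the Model mean. Over the 8 genes these multiples of the Model mean ran from 1.29 (Foxd1 in ptLNPIFN-Y) to 4.35, and without Model 3 from 7.39 (Bmerb1 in LNPIFN-Y) to 25.1 (Hoxc13 in LNPIFN-Y). The LNPIFN-Y means also rested on single libraries. Without LNPIFN-Y 5 the mean of Hoxc13 went from 3.56 to 1.31 CPM, below its Model mean of 1.57, that of Pax3 from 16.6 to 9.08 CPM and that of Soga3 from 1.61 to 0.91 CPM. Without LNPIFN-Y 1 the mean of Nr2e3 went from 5.55 to 3.73 CPM, below its Model mean of 4.23, that of Mybphl from 14.8 to 8.46 CPM, close to its Model mean of 8.28, and that of Bmerb1 from 18.1 to 10.8 CPM. The Model means in these comparisons keep Model 3. Without it the Model means were 0.142 CPM for Hoxc13, 0.708 CPM for Nr2e3 and 1.76 CPM for Mybphl. The Model libraries were chosen on, so these values carry no test either.

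**Figure D3:**
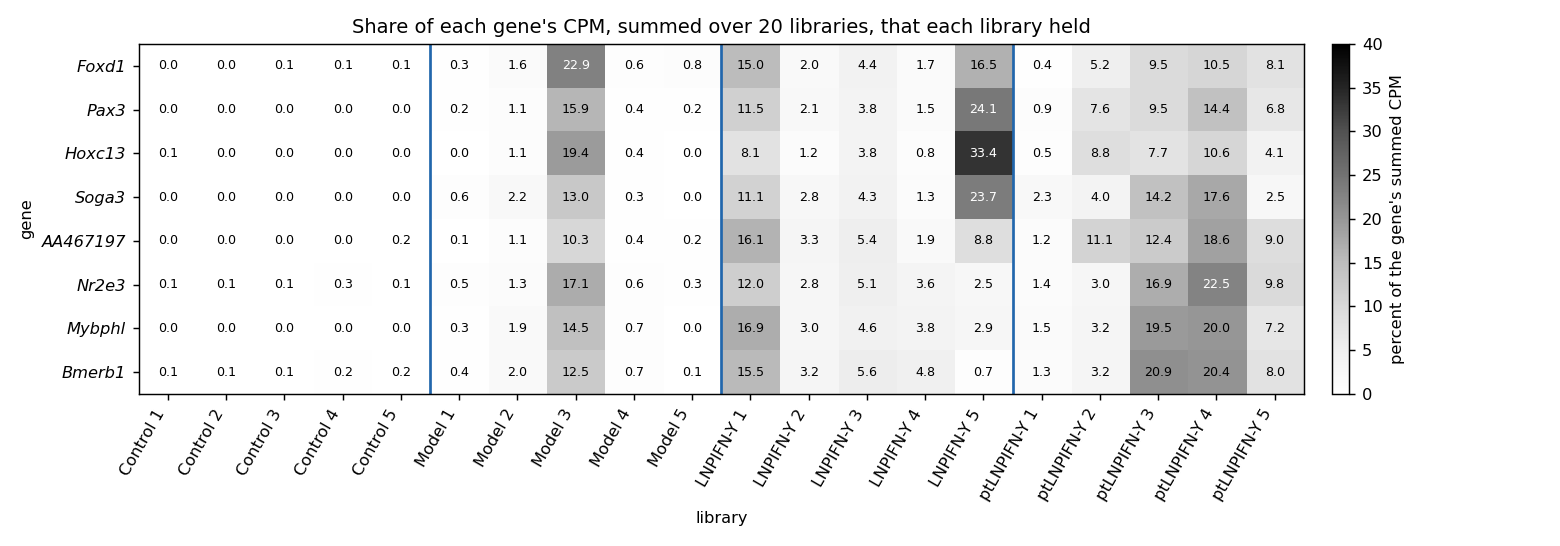
Share of each gene's CPM, summed over the 20 libraries, that each library held, in percent (darker is higher; vertical lines divide the groups). Model 3, LNPIFN-Y 1, ptLNPIFN-Y 3 and ptLNPIFN-Y 4 are dark in nearly every row, while LNPIFN-Y 5 is dark for Foxd1, Pax3, Hoxc13 and Soga3 and pale for Nr2e3, Mybphl and Bmerb1.

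The 8 genes did not vary as a single block. Likeness was measured as the overlap of 2 genes' profiles, the sum over libraries of the smaller of their shares of their own total CPM, so that 100% means the same distribution over the 20 libraries. Mybphl and Bmerb1 overlapped by 94.2%, Nr2e3 and Mybphl by 90.6%, and Nr2e3 and Bmerb1 by 89.2%. Pax3 overlapped by 87.9% with Soga3, 85.9% with Hoxc13 and 85.6% with Foxd1. Sets of Foxd1, Pax3, Hoxc13 and Soga3 on one side and Nr2e3, Mybphl and Bmerb1 on the other, drawn after these values were seen, had overlaps of 77.3% or more within the first and 89.2% or more within the second. Between them the overlap ran from 54.8% for Hoxc13 with Bmerb1 to 77% for Mybphl with Soga3, which is just below the lowest value within the first set. AA467197 lay between, overlapping the others by 66.2% (Hoxc13) to 82.9% (Mybphl). The same libraries and their depth underlie all of these values, which describe the profiles and are not tests.

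The sets differed most in library LNPIFN-Y 5. It was the highest LNPIFN-Y library for Foxd1, Pax3, Hoxc13 and Soga3, whereas LNPIFN-Y 1 was the highest for Nr2e3, Mybphl, Bmerb1 and AA467197. In LNPIFN-Y 5 there were 683 counts of Pax3 per 100 of Mybphl, and in the other 4 LNPIFN-Y libraries 31.8 to 66.3. Hoxc13 per 100 of Nr2e3 was 475 in LNPIFN-Y 5 and 7.94 to 26.3 in the other 4. Bmerb1 per 100 of Mybphl, within the other set, was 32 in LNPIFN-Y 5 and 117 to 161 in the other 4. ptLNPIFN-Y 2 leaned the same way, with 191 counts of Pax3 per 100 of Mybphl against 39.5 to 76.8 in the other ptLNPIFN-Y libraries, while its 127 of Bmerb1 per 100 of Mybphl was within their range. Model 5 had 350, from only 7 and 2 counts. LNPIFN-Y 5 also held 0 counts of the oocyte gene Zp3, as did ptLNPIFN-Y 5, while the other libraries held 40 to 740. ptLNPIFN-Y 5 did not share the division, with 76.8 counts of Pax3 per 100 of Mybphl. The part of Zp3 loss in the division was not tested.

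**Figure D4:**
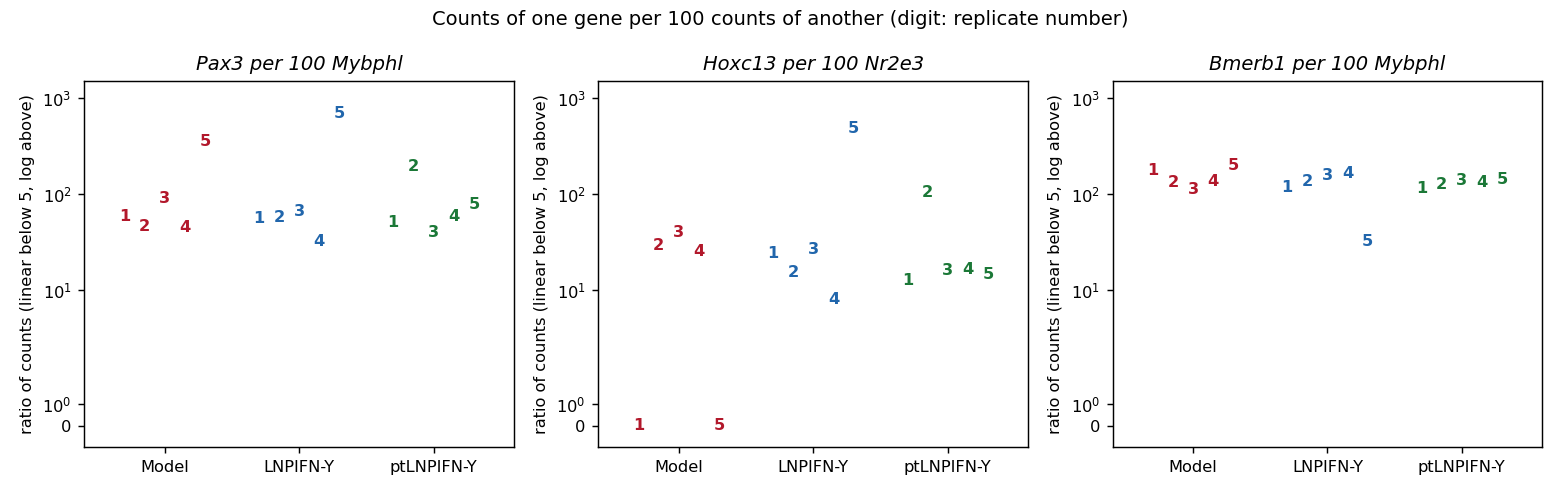
Counts of 1 gene per 100 counts of another in each library with the ovarian cancer label, on an axis that is linear below 5 and logarithmic above; digits are replicate numbers. LNPIFN-Y 5 stands apart in all 3 panels, at 683, 475 and 32.

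The comparison of the peptide-targeted with the untargeted particle is the only one between groups that contains no library used for the choice, and it asks whether targeting changed these genes. No gene of the 8 passed the test. Nr2e3 was at 11.5 ± 9.65 CPM with the targeted and 5.55 ± 4.21 CPM with the untargeted particle (SD, n = 5). Its log2 fold change was 1.05 ± 0.96 (SE), with a 95% interval from -0.97 to 3.06. The log2 fold change of Bmerb1 was 0.86 (95% interval -1.21 to 2.93), Mybphl 0.72 (-1.68 to 3.12) and AA467197 0.55 (-1.57 to 2.68). The genes of the other set lay below 0, with Soga3 at -0.08 (-2.39 to 2.22), Pax3 at -0.13 (-2.64 to 2.38), Foxd1 at -0.23 (-2.35 to 1.9) and Hoxc13 at -0.57 (-3.16 to 2.01). The intervals are wide enough to hold a change of 4-fold in at least 1 direction for every gene, so a lack of difference is not shown. In edgeR's quasi-likelihood test the unadjusted p ran from 0.289 to 0.94. Over all 15723 tested genes 0 passed at an adjusted p under 0.05 in either direction (0% called), 481 had an unadjusted p under 0.05, and DESeq2 called 0. The median log2 fold change of all tested genes was -0.01. Without LNPIFN-Y 1, the log2 fold changes of Nr2e3, Bmerb1, Mybphl and AA467197 were 1.62, 1.59, 1.53 and 1.1. Without LNPIFN-Y 5, the log2 fold changes of Pax3, Hoxc13, Soga3 and Foxd1 were above 0, at 0.73, 0.86, 0.74 and 0.23.

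**Figure D5:**
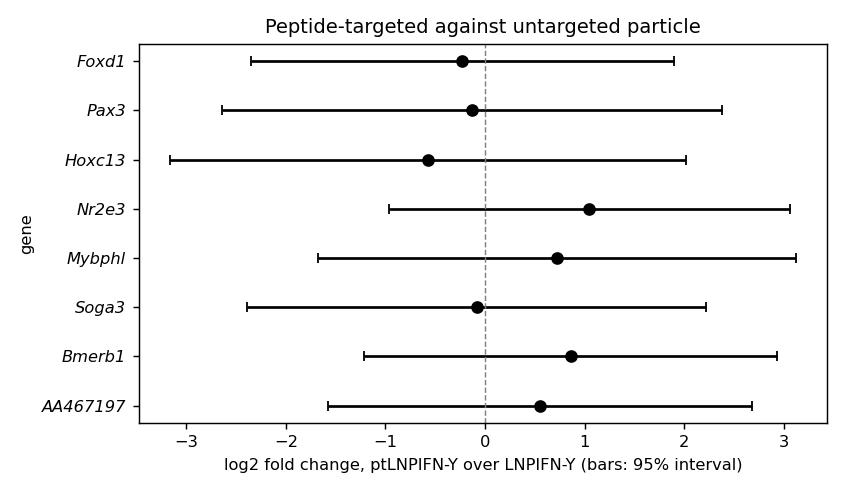
Log2 fold change of ptLNPIFN-Y over LNPIFN-Y for each gene (points) with its 95% interval (bars) from the edgeR fit of all libraries. Every interval crosses 0, and the points run from -0.57 (Hoxc13) to 1.05 (Nr2e3).

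Levels can be compared between genes only per length. In ptLNPIFN-Y the mean CPM per kilobase of deposited gene length was highest for AA467197 at 194 ± 117, followed by Mybphl at 19.1 ± 16.5, Bmerb1 at 5.51 ± 4.79, Nr2e3 at 5.13 ± 4.32, Pax3 at 3.91 ± 2.42, Foxd1 at 1.18 ± 0.712, Hoxc13 at 0.98 ± 0.625 and Soga3 at 0.385 ± 0.342 (SD, n = 5). The steps from AA467197 to Mybphl and from Pax3 to Foxd1 were larger than the SD of the higher gene, and the other neighbours in that order were within it. All genes were read in the same libraries, so the SD between libraries does not measure a step between genes. In ptLNPIFN-Y 1 to 5 Mybphl was at 2.79, 6.04, 36.2, 37.1 and 13.3. Bmerb1 was at 0.683, 1.65, 10.7, 10.5 and 4.07 in the same libraries. The remaining neighbours within the SD changed order between libraries. In LNPIFN-Y the order was AA467197 at 132, Mybphl at 11.6, Pax3 at 4.28, Bmerb1 at 3.04, Nr2e3 at 2.48, Hoxc13 at 1.46, Foxd1 at 1.39 and Soga3 at 0.409 CPM per kilobase.

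Relatives of the 8 genes were read from family lists. In the HoxC cluster, whose genes are laid out along chromosome 15 and pattern the body axis, Hoxc6 and Hoxc8 were well expressed in Control, at 86 ± 13.6 and 29.8 ± 5.5 CPM (SD, n = 5). They stood at 70.7 ± 24.1 and 20.3 ± 7.62 CPM in Model, and the summed level of the 8 listed cluster genes in Model 3, 77.2 CPM, was the lowest of the Model group. Hoxc12, the gene next to Hoxc13 at a distance of 8012 bases, had 0 counts in Control and 8 in Model 3, out of 41 over all libraries. The posterior paralogs Hoxa13, Hoxb13 and Hoxd13 had 5, 7 and 3 counts over all 20 libraries. The high Hoxc13 libraries thus had no counterpart in the other group 13 genes at this depth.

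Among the Pax genes, Pax8, an oviduct epithelium factor, averaged 41 ± 30.3 CPM in Control libraries and 33.2 ± 30.5 CPM in Model libraries (SD, n = 5). Pax2 averaged 6.24 ± 4.93 and 6.59 ± 6.85 CPM in the same groups. Pax7, the closest relative of Pax3, had 0 counts in Control and 28 of its 63 counts in Model 3. Of the Foxd genes, Foxd2 averaged 0.506 ± 0.259 CPM in Control and 0.566 ± 0.383 CPM in Model, and Foxd3 had 21 counts over all libraries. For the nuclear receptors related to Nr2e3, the Control and Model means were 138 ± 22.6 and 118 ± 40.2 CPM for Nr2f2 and 51.2 ± 3.65 and 51.1 ± 9.55 CPM for Nr2f6. For Pax8, Pax2, Foxd2, Nr2f2 and Nr2f6 the difference between the Control and Model means was smaller than the SD in Model.

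Outside the transcription factors, the cardiac myosin-binding gene Mybpc3 had 1438 counts in Model 3 and averaged 12.9 ± 9.3 CPM in Control against 27.4 ± 34 CPM in Model (SD, n = 5). Its relative Mybpc1 averaged 10.7 ± 4.75 CPM in Control against 9.42 ± 2.98 CPM in Model. Ndufa4, a respiratory chain gene related to AA467197, averaged 119 ± 13.5 CPM in Control against 121 ± 33.4 CPM in Model, and Ndufa4l2 averaged 3.14 ± 0.529 against 11 ± 14.5 CPM. The SOGA gene Soga1 averaged 91.4 ± 10.9 against 106 ± 18.9 CPM, and Mtcl1 28.5 ± 6.17 against 47.3 ± 31.2 CPM. Mical3, a bMERB gene, averaged 123 ± 10.4 against 132 ± 26.4 CPM, and Micall1 62.9 ± 11.9 against 91.4 ± 41.8 CPM. In contrast to the HoxC genes, 3 of these family lists had their highest Model sums in Model 3, at 104 CPM for the myosin-binding genes against 20.3 to 32.2 in the other 4, 236 for the SOGA genes against 121 to 144 and 655 for the bMERB genes against 383 to 463. Only 1 of the 4 myosin-binding genes, Mybpc3, was itself highest in Model 3. In the SOGA and bMERB lists 2 of 2 and 4 of 7 genes were. In Model against Control 0 of 15723 genes passed in edgeR (0% called), with 772 at an unadjusted p under 0.05, and DESeq2 called 27 higher and 2 lower. None of the tested relatives passed with either tool, nor did any pass between the particle groups.

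Among the genes that flank the 8, Hoxc12 was at 0 in Control, 2310057J18Rik beside Soga3 had 3 counts over all libraries, and Tmem174 beside Foxd1 and Gm2102 beside Pax3 averaged 0.347 ± 0.111 and 0.796 ± 0.315 CPM in Control against 0.537 ± 0.426 and 0.829 ± 0.437 CPM in Model (SD, n = 5). Echdc1, on the other side of Soga3, averaged 94.1 ± 65.9 against 47.5 ± 12.4 CPM. Btf3, 37239 bases from Foxd1, averaged 296 ± 9.69 CPM in Control against 293 ± 36.8 CPM in Model (SD, n = 5). Sort1, 3392 bases from Mybphl, averaged 133 ± 74.5 against 115 ± 40.1 CPM, and Psrc1, 3747 bases from it on the other side, 9.53 ± 1.87 against 11.2 ± 5.68 CPM. Spata5l1, 1409 bases from AA467197, averaged 13.6 ± 1.55 against 15.4 ± 3.95 CPM, and Marf1, 4114 bases from Bmerb1, 155 ± 24.3 against 154 ± 24.1 CPM. Thsd4, 6097 bases from Nr2e3, averaged 18.5 ± 2.12 CPM in Control against 35.6 ± 24.6 CPM in Model.

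Markers of the tissues these genes are best known from were set beside them in Model 3. The ovary label held for Control, where granulosa genes summed to 1579.8 to 2920.1 CPM and oocyte genes to 68.3 to 283 CPM. Granulosa sums ran from 43.4 to 1627 CPM in LNPIFN-Y and from 130 to 2486 CPM in ptLNPIFN-Y. Oocyte sums in these groups ran from 1.46 to 204 and from 0.938 to 223 CPM. Some particle libraries thus lay far below Control in these ovarian genes. The part of this in the 8 genes was not tested. In Model 3 the 7 granulosa genes summed to 588 CPM and the 6 oocyte genes to 46.6, each below the other 4 Model libraries. The 11 photoreceptor genes summed to 13.2 CPM in Model 3 and to 11.4 to 14.4 in the other 4, with Crx, Pde6b, Rcvrn, Prph2 and Arr3 at 0. The 7 atrial muscle genes summed to 30.8 CPM against 38.5 to 58.3, with Nppa, Sln and Myh6 at 0. The melanocyte and neural crest genes summed to 18.1 CPM against 29.1 to 43, with Tyrp1 and Mlana at 0. Skeletal muscle genes summed to 18 CPM against 7.92 to 25.7. Of these, Myod1, Myog and Myh4 were at 0 and 3 of 12 were highest in Model 3, with 189 counts of Actn3 and 48 of the 149 counts of Ckm there. Myod1, Myog and Tyrp1 were at 0 in all 20 libraries. Hair follicle genes summed to 1.15 CPM against 2.73 to 11.5, with 7 of 10 at 0. Kidney genes summed to 25.2 CPM against 15.6 to 43.3, and Aqp2, a water channel of the collecting duct, had 233 of its 791 counts in Model 3.

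Some other lists had their highest Model sum in Model 3. MHC class II genes, which present peptides to CD4 T cells, summed to 4599 CPM against 608 to 1155 in the other 4 Model libraries, and 10 of 11 were highest there. All 9 T cell genes were highest in Model 3, at a sum of 26.8 CPM against 12.9 to 17.5. Mesothelial and surface epithelium genes summed to 1684 CPM against 446 to 1476, with 6 of 9 highest in Model 3, so that Model 3 stood less apart in this list. Sums of the other cell type lists in Model 3 were 1269 CPM for oviduct epithelium against 51.2 to 9454, 1365 for smooth muscle against 1396 to 5425, 1109 for adipocytes against 705 to 1658, 47.2 for neurons against 32.4 to 52.3 and 43.9 for inflammatory macrophages against 45.3 to 70.7. The part of these cell types in the 8 genes was not tested.

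The genes whose counts were spread over the 20 libraries most like each member came from several families. For Pax3 these were the T-box factor Tbx15 (overlap 90.9%), Gipc2 (90%) and Tesc (88.8%). Tbx15 had 35 counts over the Control libraries, 209 over Model, 545 over LNPIFN-Y and 372 over ptLNPIFN-Y. For Foxd1 they were Tesc (90.1%), the zinc finger factor Sp9 (86.7%) and the galectin Lgals7 (86%), and Sp9 was at 0 in Control with 71 counts in Model. For Hoxc13 they were Sox8, a factor of the SOX family (90.5%), Lctl (87%) and Tbx15 (86.3%). For Soga3 they were Pax3 (87.9%), Gipc2 (86.7%) and Il1rn, which encodes the antagonist of the interleukin-1 receptor (86%).

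In the other set, Mybphl was most like Bmerb1 (94.2%), the hemidesmosome collagen Col17a1 (93.6%) and Lbhd2 (92.6%), and Bmerb1 most like Col17a1 (94.6%), Mybphl (94.2%) and the G protein subunit Gnb3 (92.7%). Col17a1 had 79 counts over the Control libraries, 1115 over Model, 2017 over LNPIFN-Y and 3342 over ptLNPIFN-Y. Nr2e3 was most like Haao, an enzyme of tryptophan breakdown (92.3%), Gnb3 (91.7%) and Cstdc1 (91.4%). AA467197 was most like the protease-activated receptor gene F2rl2 (91.1%), Ciita, the transactivator of MHC class II (87.3%), and Haao (85.4%). Ciita differed from it in Control, with 618 counts over the 5 libraries against 43 for AA467197.

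The pattern that picked the 8 genes was also counted over the whole table, with limits of a mean of at most 1 count per Control library and at least 5 per Model library. There were 47 such genes, among them Foxd1, Pax3, Hoxc13, Mybphl and Soga3. Nr2e3, Bmerb1 and AA467197 lay outside it, with 13, 34 and 43 Control counts in all, while Foxd1 with 3 and Hoxc13 with 1 lay inside. The mirror pattern, near 0 in Model and present in Control, was met by 4 genes. Of the 47 genes 32 were highest in Model 3 and 15 in Model 2, and none in Model 1, 4 or 5. Without Model 3 the number was 20, with Foxd1, Pax3 and Mybphl still inside it, and 20 genes had a count in at least 4 of the 5 Model libraries.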

How the data were processed

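Expected counts per gene were deposited by the authors for 20 ovary libraries. Per the submitters' processing notes the tools were HISAT2, StringTie, RSEM and DESeq2 and the build GRCm38.p6, with no versions and no strand setting; 9.85% of deposited values carry decimals. Gene length was deposited in bases. Counts were rounded, 26 symbols turned into dates were restored by Entrez ID, a row with no gene ID was left out, and 0 columns of other samples were present. The fit used edgeR 4.0.16 (R 4.3.3): filterByExpr with a minimum count of 10 chose the genes, TMM scaled the libraries, and counts were fitted in 1 quasi-likelihood model of 4 group means, with Benjamini-Hochberg adjustment over all tested genes and a threshold of 0.05. The fit was tested on simulated data, with changes placed in genes above a mean of 1 CPM. Between the particle groups it found 49% of 2-fold and 84% of 4-fold changes, and 5% of its calls were false. CPM values are counts over TMM-scaled library sizes. Ratios are of summed counts scaled to library totals, with exact 95% counting intervals or a floor of 3 counts over the group.

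The 8 genes and the 25 lists (187 entries, 2 absent from the table) were chosen with earlier results of these data known. Named besides the 8 genes are the 3 genes most alike to each (at least 20 counts), flanking genes, the 2 highest genes of the family lists and the 10 pattern genes with most Model counts. Pax7, Hoxd13, Zp3, Ckm, Aqp2, Nos2, Acod1, Tnf and the markers given as at 0 were named after their values were seen. Alternatives were DESeq2 1.42.0, RLE factors, library size alone, no filter, 2 groups alone, a replicate block, and each library left out. Figures used matplotlib 3.10.9.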

Additional observations from a re-analysis of the deposited data

Results flagged for a closer look

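In 29 groups of 5 libraries with any count of a gene, the gap between the most extreme library and its neighbour was set against the range (Dixon's critical value 0.71). Chance alone passes this value in about 1 in 20 groups of normally distributed values. That rate does not apply as such here, since the counts are low and skewed, the Control and Model values chose the genes, and the genes share libraries. The value was passed in 14 groups, of which 8 were Model 3.

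Model 3 stood far above the other Model libraries for all 8 genes, at 9.89 CPM of Foxd1, 30.7 of Pax3, 7.28 of Hoxc13, 18.3 of Nr2e3, 34.4 of Mybphl, 2.43 of Soga3, 38.0 of Bmerb1 and 122 of AA467197. In LNPIFN-Y, library 5 stood apart for Hoxc13 at 12.6 CPM, and library 1 for Nr2e3 at 12.8 CPM and for Mybphl at 40.1 CPM. In Control, the library apart was Control 1 for Hoxc13 at 0.0545 CPM, which is a single count among zeros and so had to pass, Control 4 for Nr2e3 at 0.323 CPM and Control 5 for AA467197 at 1.84 CPM. No ptLNPIFN-Y library stood apart by this measure for any of the 8 genes.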

How the results depend on the processing

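Between the particle groups 0 genes were called higher and 0 lower, and 0 of the 8 genes were called, under each alternative: DESeq2, RLE factors, no filter, the 2 groups alone, the replicate block (0), each of the 10 libraries left out (0 to 0), and, added after seeing the data, without replicate 5 of both groups. Replicate numbers did not pair the libraries: same-numbered particle libraries had deviations correlated from -0.31 to 0.76 over genes, and 1 of 5 correlated best with its own number. The log2 fold change changed sign, without any call, in 15 of 128 alternative values, all for Foxd1, Pax3, Hoxc13 or Soga3, each with 1 or more particle libraries left out; the cause was not tested. The lowest adjusted p of any of the 8 genes under any alternative was 0.74 (Nr2e3). Group means of the 8 genes changed most with 1 library left out, which cannot move a mean of 5 by a whole SD, so that measure does not show stability: the Model mean of Hoxc13 went from 1.57 to 0.142 CPM without Model 3, and its LNPIFN-Y mean from 3.56 to 1.31 CPM without LNPIFN-Y 5. The pattern count of 47 was 60 with tighter Control and looser Model limits, 20 with counts in at least 4 Model libraries, 4 in the mirror direction, and 20 to 52 with 1 library left out, lowest without Model 3. At these depths Hoxc13, Soga3 and Foxd1 rest on few counts per library.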

Other observations

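A second set of genes with the same pattern was carried by another library. Clca1, which encodes a secreted protein of mucus-producing epithelium, had 4 counts in Control and 8325 in Model, 99.8% of the latter in Model 2 and only 7 counts in Model 3. It had 24 counts over LNPIFN-Y and 6505 over ptLNPIFN-Y. Sprr2a3, a gene of cornified epithelium, had 4 and 946 counts in Control and Model, with 99.6% in Model 2. The membrane-type serine protease genes Tmprss11d and Tmprss11e, both at 0 in Control, had 203 and 124 Model counts, of which 99.5% and 97.6% were in Model 2, and Prss22 had 218, of which 98.6% were in Model 2. Apart from Clca1, each of these genes had 1 or 2 counts in Model 3. Tnmd, a gene of tendon, went with Model 3 instead, with 140 of its 155 Model counts there, 2 counts in Control, 401 over LNPIFN-Y and 106 over ptLNPIFN-Y. Of the 47 genes with this pattern, 32 were highest in Model 3 and 15 in Model 2.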
